A study of Mus musculus with 4 samples.

Results

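The mitochondrial ribosomal protein genes were taken as all protein-coding genes of the GENCODE M21 mouse annotation whose symbol begins with Mrpl or Mrps followed by a digit, which gave 78 of the 21755 protein-coding genes of the autosomes and chromosome X. Of these, 49 carried large-subunit (Mrpl) and 29 small-subunit (Mrps) symbols, and they lay on 17 chromosomes, with 11 on chromosome 11, 8 on chromosome 17 and none on X. Trimethylation of lysine 4 of histone H3 (H3K4me3), a mark of active promoters, was mapped by chromatin immunoprecipitation sequencing in gastrocnemius, the large calf muscle. The tissue came from adult female mice aged 2 months of B6CASTF1/J, a hybrid strain. The 4 libraries formed 2 pools, E for biological replicate 1 and F for biological replicate 2. Each pool combined 2 gastrocnemius biosamples and gave 2 technical libraries, with fragments of 200 to 600 bp. All 4 shared the tissue, sex, age and strain, with no treatment named, so the design held no contrast between conditions.

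The mitochondrial ribosome translates the few proteins that mitochondrial DNA encodes, which are core subunits of the respiratory chain and ATP synthase. All of its proteins are encoded in the nucleus, made in the cytosol and imported, while its RNAs are made inside the organelle. Many of the proteins descend from bacterial ribosomal proteins, and others were added during the evolution of mitochondria. Skeletal muscle fibres draw much of their energy from oxidative phosphorylation, and H3K4me3 at a start site accompanies transcription without measuring its amount.

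Values came from the authors' peak lists: the replicated list, which combines both pools, and the lists of pool E and pool F. Marked genes were those with at least 1 peak no farther than 1000 bp from any transcription start site (TSS) of the gene. The lead peak of a gene was the one of those peaks with the highest signal value, a number the authors gave each peak without stating its reference level, which serves here only to describe and rank peaks within a list. No list holds a value for a single library or a read count, so depth is unknown and no test across samples could be made. Genes are not replicates, and the counts and medians below describe these lists. The tissue label was checked on start sites: 8 of 8 skeletal muscle markers, among them the creatine kinase gene Ckm and the skeletal actin gene Acta1, were marked with a median lead peak of 6650 bp, and 0 of 4 liver markers (Alb, Ahsg, Apoa2 and Cps1) were. In whole muscle, the cell type that carries a mark cannot be told from the peak.

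Many members share their promoter with a neighbour on the other strand, and the stretches between the paired starts are shown for some of the pairs. These are examples and not typical of all pairs, since most of the stretches not shown hold no ETS core, a motif described below. The motif counts below come from a window around the main start and not from these stretches. Coordinates are GRCm38 (mm10), each sequence is from the RefSeq assembly GRCm38.p6 on the strand of the first gene named, and capitals mark matches to the motifs described below, on either strand. They lie at chr7:78783090-78783118 (minus strand) for the Mrpl46 and Mrps11 pair, chr5:100798599-100798626 (plus) for Mrps18c and Helq, chr11:115603894-115603924 (plus) for Mrps7 and Gga3, chr17:12916346-12916381 (minus) for Mrpl18 and Tcp1, chr13:99344706-99344785 (plus) for Mrps27 and Ptcd2, chr19:45006443-45006557 (minus) for Mrpl43 and Twnk, and chr7:28741821-28741991 (minus) for Mrps12 and Sars2.
Mrpl46/Mrps11: gcccctcgccggcccgcgttgcctcatgg
Mrps18c/Helq: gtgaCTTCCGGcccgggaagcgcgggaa
Mrps7/Gga3: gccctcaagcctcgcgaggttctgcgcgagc
Mrpl18/Tcp1: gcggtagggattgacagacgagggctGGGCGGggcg
Mrps27/Ptcd2: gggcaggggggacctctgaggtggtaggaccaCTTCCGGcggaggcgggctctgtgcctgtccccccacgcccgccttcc
Mrpl43/Twnk: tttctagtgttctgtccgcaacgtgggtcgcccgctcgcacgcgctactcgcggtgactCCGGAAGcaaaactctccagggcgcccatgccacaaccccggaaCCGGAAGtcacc
Mrps12/Sars2: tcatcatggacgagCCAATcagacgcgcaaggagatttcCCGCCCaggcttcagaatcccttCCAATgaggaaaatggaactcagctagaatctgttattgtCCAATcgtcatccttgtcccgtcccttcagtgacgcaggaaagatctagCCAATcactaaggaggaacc

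Every mitochondrial ribosomal protein gene was marked. All 78 members had a peak in the replicated list, in the pool E list and in the pool F list, against 69.3, 69.3 and 68.9% of all protein-coding genes in the same lists. For 78 of 78 the lower bound of the 95% Wilson interval was 95.3%, which covers counting error only. Start sites rich in CpG set a nearer comparison: 99.3% of the 5731 protein-coding genes whose main start (the most upstream TSS of the principal transcripts) had, over 1000 bp, at least 55% GC and at least 0.75 times the CpGs expected from its base composition were marked. Only 25 of the 78 members met that CpG criterion. All 78 also had a peak within 1000 bp of the main start itself, compared with 66.7% of all protein-coding genes. When only the 5' end of the gene record was allowed, 76 were marked, and Mrpl35 and Mrps24 were not, because their gene records begin upstream of the main start.

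The genes that act with the mitochondrial ribosome were marked as completely. These were 5 of 5 ribosomal proteins with other names (Dap3, Ptcd3, Aurkaip1, Chchd1 and Gadd45gip1), 10 of 10 translation factors, 16 of 16 genes of ribosome assembly and rRNA modification, and 4 of 4 genes of mitochondrial transcription. Among them, the elongation factor gene Tufm had signal values of 51.3 in the replicated list, 56.4 in pool E and 46.4 in pool F. The transcription factor gene Tfam had 56.2, 67.7 and 54.1 in the same order. Lists for comparable complexes were drawn by symbol, so they also hold genes that are not subunits, such as Psmc3ip and the Ndufaf assembly genes. In these lists, 82 of 84 cytosolic ribosomal protein genes, 39 of 40 proteasome (Psm) genes and 46 of 46 complex I (Nduf) genes were marked. The 3 unmarked ones were Rpl10l, Rpl39l and Psmb11, whose expression is known mainly from testis (Rpl10l and Rpl39l) and thymus (Psmb11).

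Signal values of the members were moderate to high and lacked the low end of the list. In the replicated list their median was 52.4 (interquartile range 42.0 to 57.5, range 27.7 to 63.3), while all marked protein-coding genes had a median of 45.2 (31.7 to 54.7, range 2.14 to 64.1). The medians were 56.8 against 48.9 in pool E and 48.3 against 42.9 in pool F. By rank among marked genes, 51 of 78 members stood at or above the 50th percentile, 16 at or above the 90th and 5 below the 25th, and the median percentile was 67.3 in the replicated list, 67.8 in pool E and 64.6 in pool F. No member had a signal value under 10 in any of the 3 lists, whereas 7.53% of marked genes in the replicated list did. CpG content accompanied part of this: CpG-rich genes had a median of 52.1, and the 25 CpG-rich members 55.3. The 53 other members had a median of 50.7, against 40.1 for all marked genes without a CpG-rich start.

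**Figure D1:**
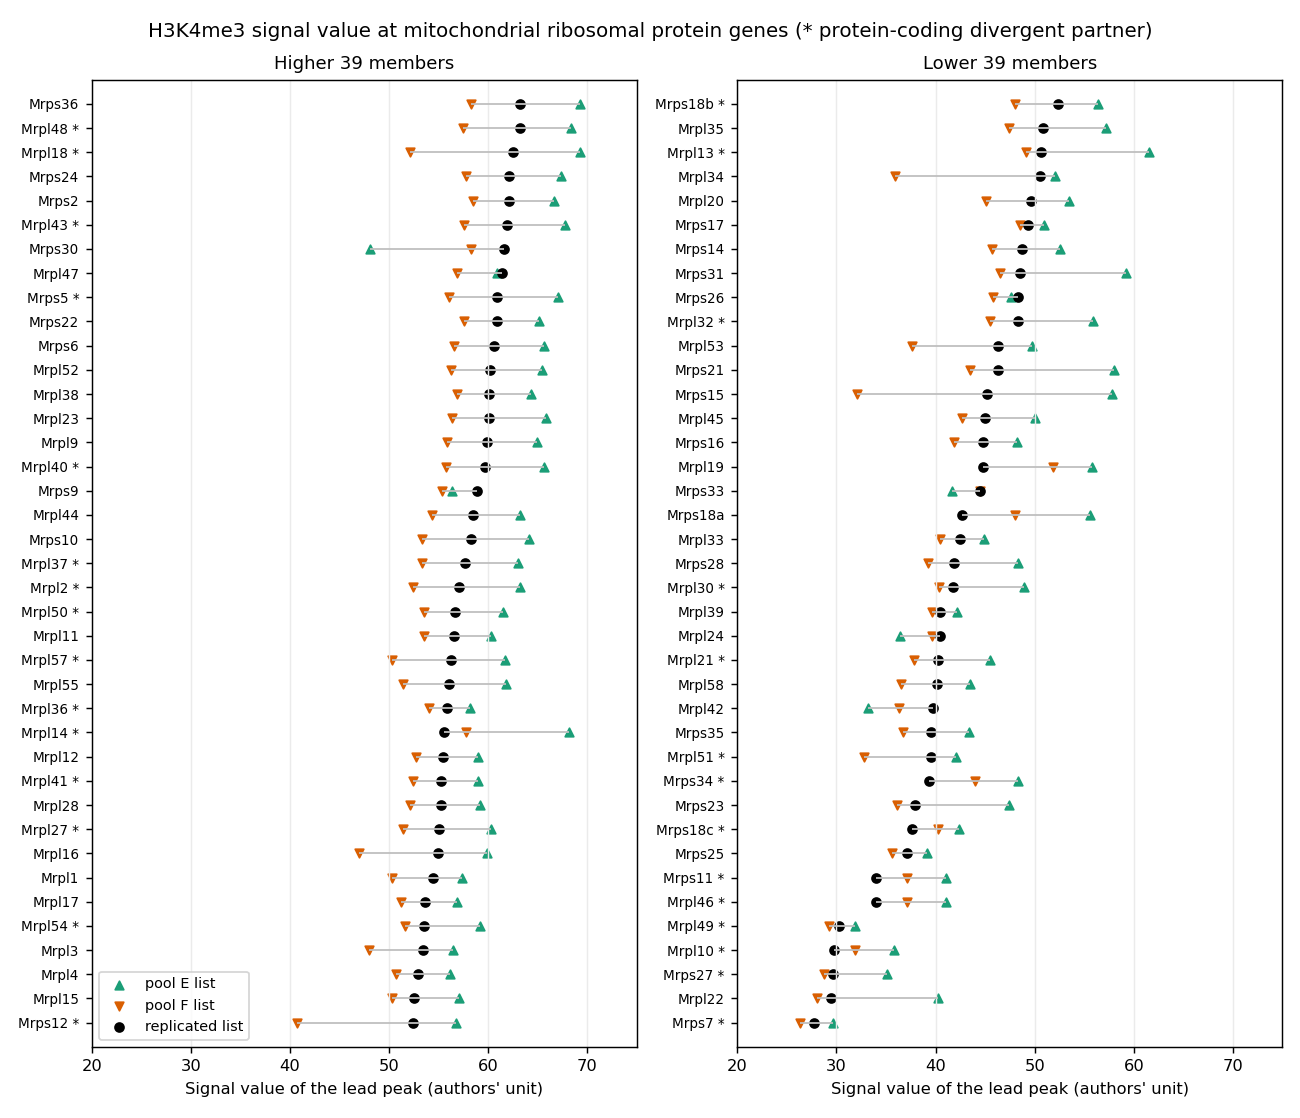
Signal value of the lead peak (horizontal axis, the authors' unit) of each of the 78 members in the replicated list (circles), pool E (upward triangles) and pool F (downward triangles), ordered by the replicated list; an asterisk marks a protein-coding divergent partner, and grey lines span the 3 values. Values run from 27.7 at Mrps7 to 63.3 at Mrps36 in the replicated list, and pool E lies above pool F for most members.

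At the top of the order stood Mrps36, whose product is also known as a component of the 2-oxoglutarate dehydrogenase complex, with signal values of 63.3 in the replicated list, 69.2 in pool E and 58.2 in pool F. The small-subunit gene Mrps2 had 62.1, 66.7 and 58.4, and Mrps24 had 62.1, 67.3 and 57.7. Mrpl18, whose product is related to the bacterial protein that binds 5S rRNA, had 62.5, 69.2 and 52.1. These 4 were high in every list, although Mrpl18 stood at the 99.9th percentile in pool E and the 77.9th in pool F. Mrpl48 (63.2 in the replicated list), Mrpl43 (61.9), Mrps30 (61.5), Mrpl47 (61.3), Mrps5 (60.9) and Mrps22 (60.9) completed the 10 highest. Products of Mrps30 and Mrps18a are found in the large subunit of mammalian mitochondrial ribosomes despite their symbols.

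At the bottom stood Mrps7, whose bacterial counterpart helps to organise the head of the small subunit, with 27.7 in the replicated list, 29.7 in pool E and 26.4 in pool F. Mrpl22, a relative of a protein at the peptide exit tunnel, had 29.4, 40.2 and 28.01. Mrps27, a pentatricopeptide repeat protein of the small subunit, had 29.6, 35.1 and 28.7. Mrps7 and Mrps27 were low in all lists, and Mrpl22 was less low in pool E than in the other lists. Mrpl10, a protein of the stalk base, had 29.8, 35.8 and 31.9, and Mrpl49 had 30.3, 31.9 and 29.2. Mrpl46 and Mrps11 lie on 1 peak and so share the values 34.0, 41.04 and 37.1. Mrps25 (37.1), Mrps18c (37.7) and Mrps23 (37.9 in the replicated list) completed the 10 lowest. Low here is relative, since Mrps7 still ranked at the 20.6th percentile of marked genes.

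The promoters at the ends of this order among members without a divergent partner are shown as the 150 bases before the main start, first the 4 with the lowest signal values and then the 4 with the highest. They lie at chr11:58171511-58171660 (plus) for Mrpl22, chr6:92184034-92184183 (minus) for Mrps25, chr11:88204238-88204387 (plus) for Mrps23, chr6:147042614-147042763 (plus) for Mrps35, chr13:118387253-118387402 (minus) for Mrps30, chr11:5707688-5707837 (minus) for Mrps24, chr2:28467916-28468065 (plus) for Mrps2 and chr13:100744660-100744809 (minus) for Mrps36.
Mrpl22: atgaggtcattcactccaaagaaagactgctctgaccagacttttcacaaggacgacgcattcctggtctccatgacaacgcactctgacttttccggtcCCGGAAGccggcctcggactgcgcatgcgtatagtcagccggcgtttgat
Mrps25: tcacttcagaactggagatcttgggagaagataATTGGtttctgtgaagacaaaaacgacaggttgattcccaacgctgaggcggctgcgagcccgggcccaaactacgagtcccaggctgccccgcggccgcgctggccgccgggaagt
Mrps23: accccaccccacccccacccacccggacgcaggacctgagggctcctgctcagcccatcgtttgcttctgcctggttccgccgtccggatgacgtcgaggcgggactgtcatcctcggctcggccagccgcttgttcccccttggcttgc
Mrps35: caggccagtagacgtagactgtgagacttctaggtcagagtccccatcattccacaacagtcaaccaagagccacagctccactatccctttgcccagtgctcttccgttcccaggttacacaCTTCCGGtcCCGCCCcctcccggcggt
Mrps30: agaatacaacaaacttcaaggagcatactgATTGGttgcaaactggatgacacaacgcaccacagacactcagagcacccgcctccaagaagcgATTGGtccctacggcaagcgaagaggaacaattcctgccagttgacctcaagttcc
Mrps24: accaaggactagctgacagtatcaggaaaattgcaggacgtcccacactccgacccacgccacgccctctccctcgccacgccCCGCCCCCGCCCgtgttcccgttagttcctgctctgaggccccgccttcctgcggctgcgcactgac
Mrps2: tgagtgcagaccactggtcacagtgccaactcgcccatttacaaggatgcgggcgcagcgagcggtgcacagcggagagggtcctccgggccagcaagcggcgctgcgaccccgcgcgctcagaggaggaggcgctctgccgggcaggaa
Mrps36: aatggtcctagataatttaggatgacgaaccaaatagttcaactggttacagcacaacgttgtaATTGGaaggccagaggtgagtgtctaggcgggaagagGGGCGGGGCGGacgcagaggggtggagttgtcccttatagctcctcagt
In the 150 bases shown, an ETS core (CCGGAAG or its complement) stands in Mrpl22 and Mrps35 of the 4 lowest. None of the 4 highest holds one there. GC boxes (GGGCGG or its complement) stand in Mrps35 among the lowest and in Mrps24 and Mrps36 among the highest. Mrps23 and Mrps2 hold no match in these bases, and Mrps25 and Mrps30 hold only CCAAT. The longer promoter window counted below runs past the main start, and in it Mrps23 also holds an ETS core, at position 16. Mrps24 holds a YY1 core (AAGATGGC) at position 23 of that window's count from the main start, and TATAAA. Of the 4 lowest only Mrps25 lacks an ETS core in that window, and none of the 4 highest has one. Neither end of the order has a motif common to its 4 promoters in either stretch. Over all members, the 29 with an ETS core in the promoter window had a median signal value of 50.6, and those without one 53.6. The 37 with a GC box had 52.5, and those without one 50.6. Whether either motif goes with signal value was not tested.

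In width the members stood a little below the typical marked gene. The median lead peak was 2082.5 bp in the replicated list (interquartile range 1756 to 2548 bp, range 1197 to 4794 bp), against 2251 bp for all marked protein-coding genes (1632 to 3146 bp). The pool E list gave 2108 bp against 2293 bp, and the pool F list 2034 bp against 2163 bp. Only 28 of 78 members reached the 50th percentile of width in the replicated list, while 51 did so in signal value. Across the 78 members, signal value and width had a Spearman rho of 0.08, and across all marked genes 0.43. These are descriptions over genes of the same libraries.

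**Figure D2:**
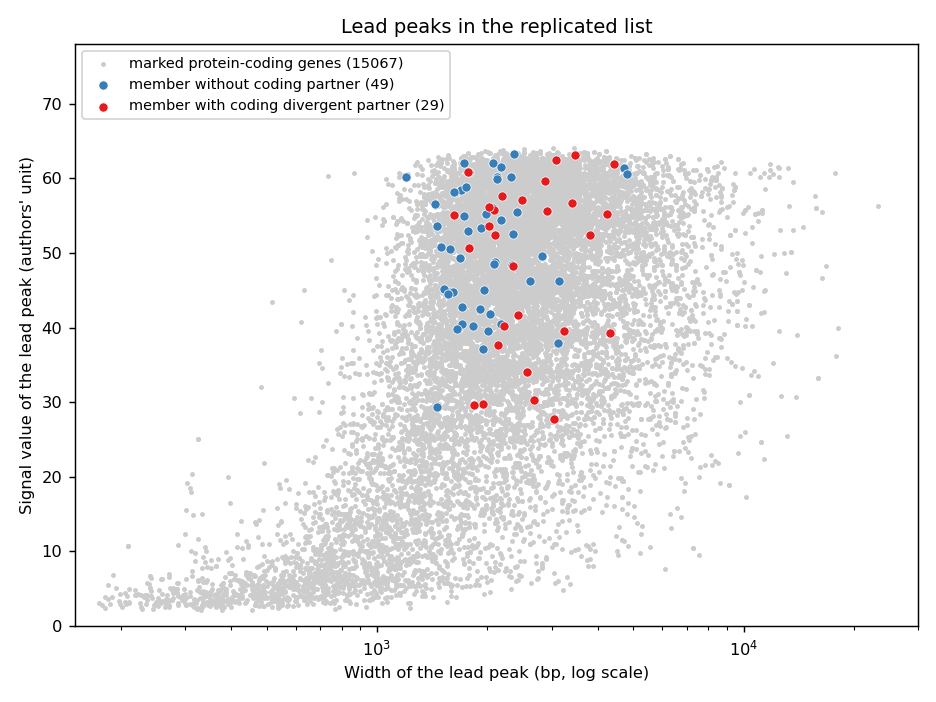
Signal value (vertical axis, authors' unit) against width (horizontal axis, bp on a log scale) of the lead peak in the replicated list, for all 15067 marked protein-coding genes (grey), the 49 members without a protein-coding divergent partner (blue) and the 29 with one (red). Members lie between 1197 and 4794 bp and above a signal value of 27, away from the low, narrow tail of the grey points.

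The widest lead peaks belonged to Mrps6 (4794 bp), Mrpl47 (4713 bp), Mrpl43 (4440 bp), Mrps34 (4318 bp), Mrpl41 (4253 bp) and Mrps18b (3805 bp). Each of these peaks was shared with another gene. The Mrps6 peak, at chr16:92057285-92062078, also held the lead position for Slc5a3, the myo-inositol transporter gene, whose main start is 52 bp away on the same strand, and for Gm49711. The Mrpl47 peak was shared with Ndufb5, a complex I subunit gene, and the Mrps34 peak with Eme2 and Nme3. By pool (E, then F), the Mrps6 peak was 4487 and 4675 bp wide and the Mrpl47 peak 4941 and 4260 bp. The narrowest lead peaks belonged to Mrpl38 (1197 bp), Mrpl11 (1436 bp), Mrpl17 (1455 bp), Mrpl22 (1460 bp), Mrpl35 (1493 bp) and Mrps15 (1526 bp). Mrpl38 joined a narrow peak with a high signal value of 60.1, whereas Mrpl22 was narrow and low.

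Set beside the symbol lists for other complexes of housekeeping kind, the members had like signal values and shorter peaks. For cytosolic ribosomal protein genes the medians were 51.7 in signal value and 2637 bp in width, for proteasome genes 48.9 and 2520 bp, and for complex I genes 52.4 and 2608 bp. The peaks of the members extended a median of 716.5 bp upstream of the main start, close to the 742 bp of all marked genes. Downstream they extended 1288.5 bp, compared with 1845 bp for cytosolic ribosomal protein genes, 1642 bp for proteasome genes, 1743.5 bp for complex I genes and 1430 bp for all marked genes. These reaches cover the genes whose lead peak holds the main start, which were 74 of the 78 members. Whether these lists differ beyond chance was not tested.

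**Figure D3:**
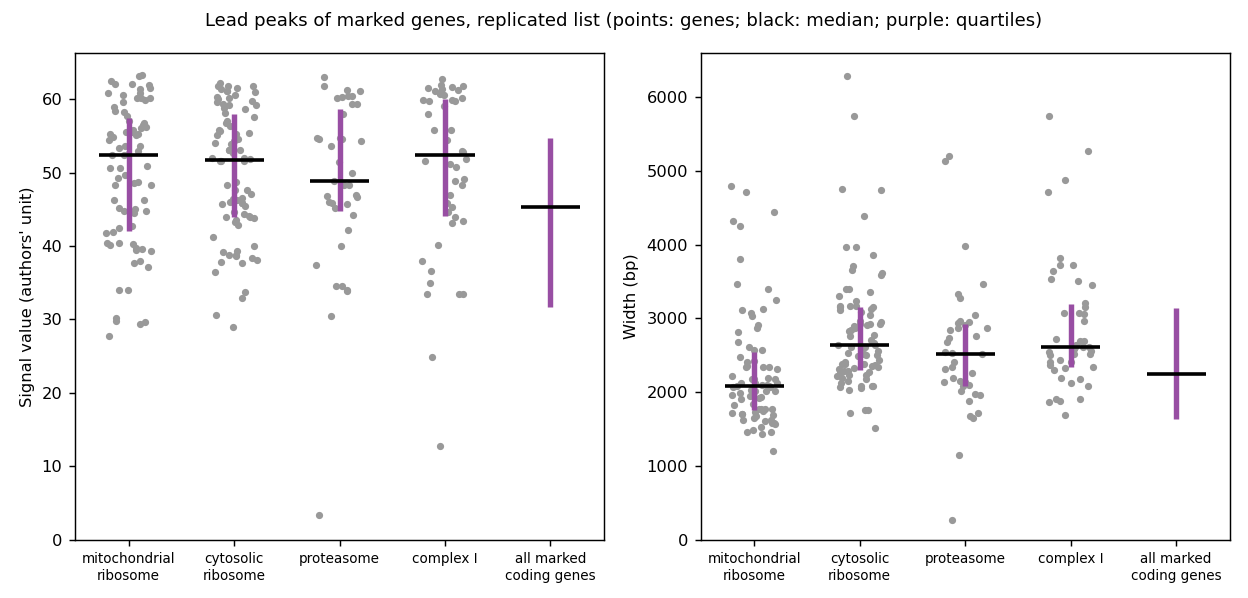
Signal value (left, authors' unit) and width in bp (right) of the lead peak in the replicated list for each marked gene (points) of 4 lists drawn by symbol, with the median (black) and quartiles (purple), and the median and quartiles of all marked protein-coding genes. The mitochondrial ribosome, with a median of 52.4 in signal value, stands near the complex I list, and its median width is 2082.5 bp, below the 2520 to 2637 bp of the other 3 lists.

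Members are short genes, with a median length of 7900 bp against 17414 bp for all protein-coding genes and 24703 bp for the marked ones. The lead peak covered a median of 17.2% of the member's length, compared with 5.85% for all marked genes. Similar lists shared this: median coverage was 60.3% for cytosolic ribosomal protein, 22.3% for complex I and 14.3% for proteasome genes. Their median lengths were 3328.5, 8089.5 and 12062 bp in the same order. The lead peak covered the whole gene at Mrps34, Mrpl53, Mrpl34 and Mrpl41 (5.13% of members). Full coverage was found for 2.27% of all marked genes. It was found for 9.76% of marked cytosolic ribosomal protein genes, 4.35% of complex I genes and 0 proteasome genes. Peaks inside the gene and more than 1000 bp from any TSS were found in 7 members (8.97%) against 32.7% of marked genes and 24.6% of all protein-coding genes.

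Groups by subunit and by ancestry overlapped in these values. The 49 Mrpl genes had medians of 53.6 in signal value and 2127 bp in width, and the 29 Mrps genes 48.3 and 2074 bp. The 45 members with a bacterial counterpart had 52.4 and 1988 bp, and the 33 specific to mitochondria 48.5 and 2178 bp. The interquartile ranges overlapped in both splits, from 44.8 to 56.7 for Mrpl and from 39.5 to 58.9 for Mrps genes in signal value.

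A divergent partner, that is another gene whose TSS lies on the opposite strand 0 to 1000 bp upstream of a TSS of the member, was common among the members. A protein-coding partner was found for 29 of 78 (37.2%, 95% Wilson interval 27.3 to 48.3%), compared with 11.1% of all protein-coding genes, 15.5% of the marked ones and 18.9% of those with a CpG-rich main start. With partners of any biotype the count was 32 (41.03%) against 18.4% of all genes, the added ones being the noncoding C920021L13Rik at Mrps21, Ccdc142os at Mrpl53 and 2610507I01Rik at Mrpl55. In the symbol lists for other complexes, 19 of 46 complex I genes (41.3%), 10 of 40 proteasome genes and 16 of 84 cytosolic ribosomal protein genes had a protein-coding partner. Partners were found for 21 of 49 Mrpl and 8 of 29 Mrps genes. This is a property of the annotation and not of the muscle samples. The count rests on the TSSs admitted: 18 members (23.1%, against 6.84% of all genes) had a partner when each gene was given only the 5' end of its record.

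The paired starts lay close together. The gap had a median of 59 bp (range 26 to 935 bp) for the members, against 106 bp for all genes with a protein-coding partner, and it was at most 100 bp for 72.4% of the partnered members against 48.5% of all partnered genes. The 15 shortest were Mrpl54 with Apba3 (26 bp), Mrps18c with the helicase gene Helq (29 bp), Mrps34 with the endonuclease subunit gene Eme2 (29 bp), the 2 members Mrpl46 and Mrps11 with each other (30 bp), Mrps7 with the Golgi adaptor gene Gga3 (32 bp), Mrpl18 with the chaperonin gene Tcp1 (37 bp), Mrpl21 with Ighmbp2 (38 bp), Mrps18b with Ppp1r10 (45 bp), Mrpl27 with Eme1 (47 bp), Mrpl57 with Ska3 (49 bp), Mrpl36 with the complex I gene Ndufs6 (51 bp), Mrpl48 with Rab6a (52 bp), Mrpl13 with Mtbp (59 bp) and Mrpl49 with Fau (59 bp), whose product is a fusion that yields a cytosolic ribosomal protein. Since Mrpl46 and Mrps11 are each other's partner, the 29 members formed 28 loci. Other partners with a mitochondrial role were Ptcd2, of mitochondrial RNA processing, at Mrps27 (81 bp), Twnk, the mitochondrial DNA helicase, at Mrpl43 (116 bp), and Sars2, the mitochondrial seryl-tRNA synthetase, at Mrps12 (172 bp). These 3 pairs were chosen after their values were seen.

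All 29 partners were marked, as were 97.1% of all protein-coding genes with a protein-coding divergent partner. In 28 pairs the member and its partner had the same lead peak. The exception was Mrpl2, whose partner is the kinesin light chain gene Klc4. The peak over both starts had a signal value of 39.6 and a width of 2718 bp, and the higher peak within reach of an alternative TSS of Mrpl2 lay at Cul7, a ubiquitin ligase gene, with 57.1. At the Mrpl46 and Mrps11 locus a single peak of 34.0 served both members, so the 78 members had 77 distinct lead peaks. Counting every neighbour, on either strand, 33 of 78 members (42.3%) shared their lead peak with another protein-coding gene, against 19.6% of marked genes. Of all marked genes with a protein-coding divergent partner, 92.8% shared their lead peak in this way. By the same measure all 29 partnered members did, Mrpl2 with Cul7 and not with its partner. The marking and sharing in the pairs of members are thus near those of paired genes at large.

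Lead peaks of partnered members were wider, and those that held the main start reached farther to the side of the partner. Median width was 2480 bp in the 29 partnered members and 1948 bp in the 49 others, and the median signal values were 52.4 and 50.9. The 29 include Mrpl2, Mrpl54 and Mrps18b, whose lead peaks lie beside the paired starts and not over them. The median of 2480 bp is itself the width of the Mrpl2 lead peak, at Cul7. The same widths were 2522 and 1961 bp by the pool E list, and 2416 and 1849 bp by that of pool F. Where the lead peak held the main start, it extended a median of 1224 bp upstream and 1244 bp downstream in the 25 partnered members, compared with 627 and 1333 bp in the 49 others. In these genes the difference in reach thus lay upstream. Over all marked genes the same split gave 2641 bp with a partner and 2159.5 bp without. The medians of signal value differed by less than the interquartile range of either group.

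The summit of the peak also stood differently at paired starts. It lay downstream of the main start in 48 of 49 members without a partner, Mrpl47 being the exception, and in 13 of 25 members with a partner. The counts were 48 of 49 and 15 of 25 in pool E, and 47 of 49 and 12 of 25 in pool F. Over all marked genes the shares were 89.4% without and 56.8% with a protein-coding partner. The exception Mrpl47 shares its lead peak with Ndufb5, whose main start lies 157 bp away on the opposite strand. The upstream rule does not count Ndufb5 as its partner. Sides were also judged from the closest pair of starts, which need not include the main start. Of the 29 pairs, 13 then had the summit on the side of the member, 15 on the side of the partner and 1 between the starts. The side was the same in both pools for 26. Mrpl13 and Mrpl27 changed to the partner's side by this reference and Mrpl51 to the member's, so these 13 are not the 13 above. The single summit of Mrpl46 and Mrps11 counts once on each side. The 13 pairs include Mrpl2, where the summit is that of the separate peak at Cul7 and not of the peak over the paired starts. The 15 include Mrpl48, Mrpl54 and Mrps18b, whose lead peaks do not hold the main start. At Mrps7 the summit lay 363 bp into the member, at Mrps18c 248 bp to the side of Helq, at Mrpl18 308 bp to the side of Tcp1 and at Mrpl49 344 bp to the side of Fau. A summit position is that of the authors' caller, and how much of the mark belongs to either gene cannot be told apart.

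**Figure D4:**
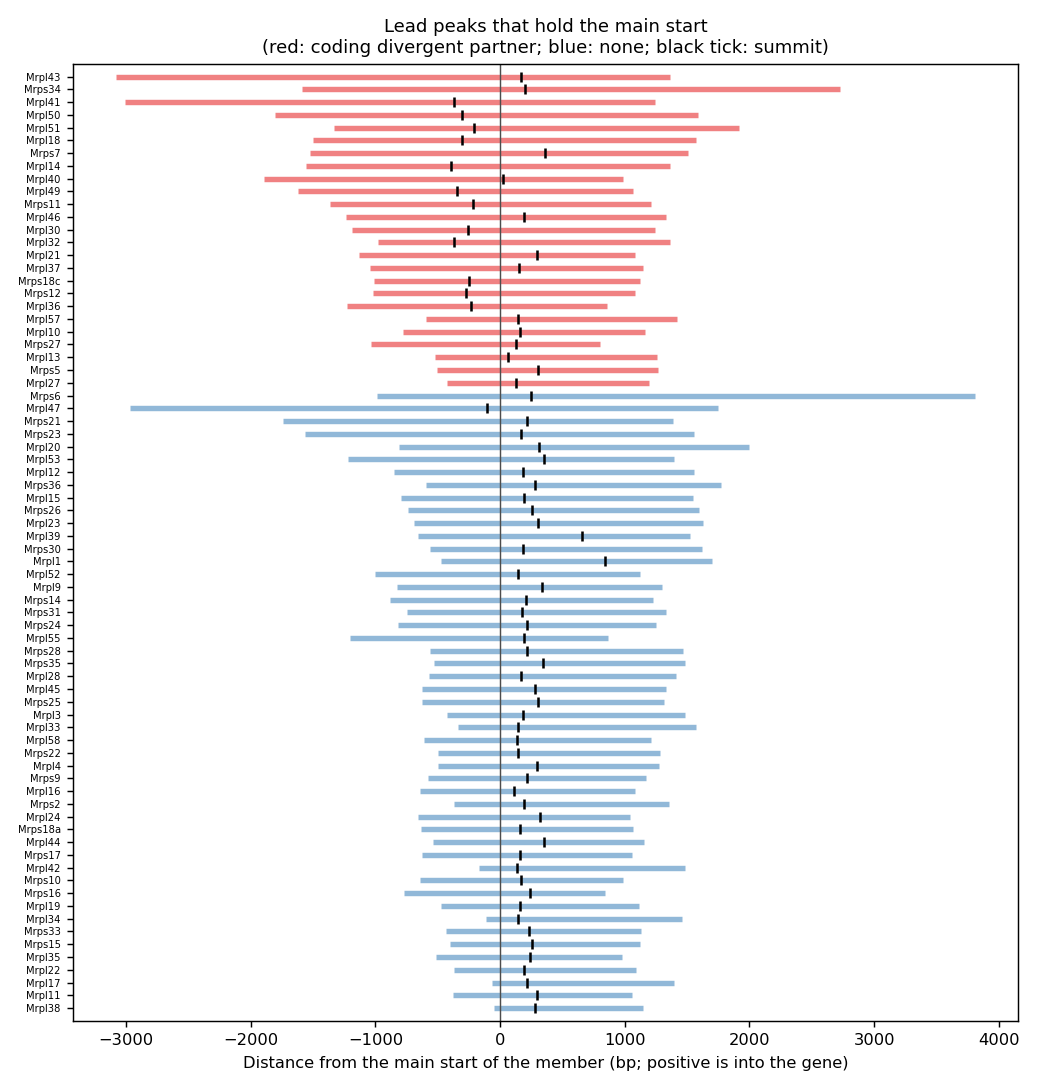
Extent of the lead peak in the replicated list around the main start of each of the 74 members whose lead peak holds it (horizontal axis, bp, positive into the gene; black tick, summit), for the 25 with a protein-coding divergent partner (red) and the 49 without (blue), each sorted by width. Blue bars reach a median of 627 bp upstream with nearly all summits right of the start, and red bars reach 1224 bp upstream with summits on both sides.

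For 4 members the lead peak did not hold the main start, and its value is that of a neighbouring peak. At Mrpl48 the peak at the main start had a signal value of 49.2 and a width of 1358 bp, and the lead peak of 63.2 lay at the start of Rab6a, which faces a distant alternative TSS. At Mrpl54 the peak at the main start had 42.2 and 1511 bp, and the lead peak of 53.6 began 949 bp upstream on the side of Apba3. At Mrps18b the peak at the main start had 35.4 and 1571 bp, and the lead peak of 52.4 began 514 bp upstream on the side of Ppp1r10. The 4th was Mrpl2, described above. With the peak nearest the main start in place of the lead peak, the medians over the 78 members were 50.1 and 2073 bp, and those of all such genes 45.0 and 2249 bp. Mrpl48 and Mrps18b thus owe their places among the highest signal values and the widest peaks to peaks beyond their main starts.

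More than 1 peak lay within 1000 bp of the TSSs of 14 members (17.9%, against 19.4% of marked genes). Mrpl14 and Mrpl48 had 3 each. At Mrpl14 the main peak of 55.6 and 2917 bp was joined by small ones of 2.14 and 4.77 at alternative TSSs. Mrpl34 had a pair of peaks of like strength (43.7 and 50.6) separated by a narrow gap, and Mrpl36 another pair (55.8 and 46.7). Mrpl33 had peaks of 42.4 and 22.3, and those of Mrpl2 and Mrpl54 are given above. At Mrpl17 and Mrpl38 the second peak was weaker, with 10.7 and 6.78, and lay just upstream of the narrow lead peak. At Mrps5 the second peak had 7.92, and Mrps7, Mrps16, Mrps18a and Mrps18b made up the 14.

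The pools gave much the same picture of the members. In every member the lead peaks of the pools overlapped, and across the 78 genes the Spearman rho between pools was 0.86 for signal value and 0.86 for width, against 0.91 and 0.95 across all genes marked in both. The pools share the strain, the laboratory's protocol and an input file. Lead peaks were wider in pool E for 58 members and narrower for 20, with a median ratio of 1.06, and 76.0% of all genes were wider in pool E, with a median ratio of 1.05. The largest ratios were those of Mrps23 (1.39, from 4093 bp in pool E against 2942 bp), Mrpl44 (1.32), Mrpl45 (1.31), Mrpl9 (1.29), Mrpl14 (1.26) and Mrpl21 (1.21). The smallest were those of Mrpl34 (0.46), Mrpl17 (0.80), Mrpl20 (0.83), Mrps22 (0.85), Mrpl48 (0.87) and Mrpl16 (0.93). At Mrpl34 the pair of peaks seen in pool E, the lead one 1597 bp wide, appeared in pool F as 1 peak of 3440 bp.

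In rank of signal value, 6 members moved by more than 20 percentile points between the pools, and 9.07% of all genes did. Mrps30 stood at the 47.6th percentile in pool E and the 99.0th in pool F, with signal values of 48.0 and 58.2. Mrps15 moved the other way, from the 71.0th to the 27.98th, with 57.8 and 32.1. The others were Mrps12 (67.5th and 44.5th), Mrpl34 (55.9th and 34.9th), Mrpl18 and Mrps9 (66.3th and 89.3th). With 1 list per pool, no error can be given for any of these shifts.

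Short motifs were counted on both strands in the window from 250 bases before to 50 after the main start, beside the share of all 21755 protein-coding promoters. The ETS core CCGGAAG, read by the ETS family that includes GABP (nuclear respiratory factor 2), was found in 29 of 78 members (37.2%), against 11.3% of all promoters, 15.3% of those of marked genes and 18.7% of CpG-rich ones. The YY1 core AAGATGGC was found in 11 members (14.1%), against 3.08, 3.95 and 5.20%. Either was present in 35 members (44.9%, against 13.8% of all promoters) and both in 5. The ETS core stood in 11 of 29 partnered members (37.9%), against 24.9% of all partnered genes, and in 18 of 49 other members (36.7%), against 9.58% of all genes without a partner. In RefSeq promoter windows of the same length, which matched 69 members, 36.2% of members against 12.4% of all held the ETS core, and 17.4% against 3.26% the YY1 core. The 2 cores can share the bases AAG, and the other motifs counted cannot contain one another.

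Most ETS cores lay next to the start: 31 of 33 matches in members were within 100 bases before to 50 after it, with a median position of -12. In all promoters 74.7% of the ETS matches lay there. Matches are shown with 10 bases on each side on the strand of the gene, with the core in capitals and positions counted from the main start, which is 1. They lie at chr6:125192100-125192126 for Mrpl51 (position -55), chr9:98601674-98601700 for Mrps22 (-30), chr17:47368864-47368890 for Mrps10 (-17), chr9:105053239-105053265 for Mrpl3 (11) and chr14:54426901-54426927 for Mrpl52 (3).
Mrpl51: aggggctaaaCCGGAAGtatttgactg
Mrps22: acctctcgagCCGGAAGttgctctatc
Mrps10: tgctgtgaccCCGGAAGcggtcctggg
Mrpl3: gagaaacggaCCGGAAGtggcccggct
Mrpl52: gccacgcccaCTTCCGGttcccttgct

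YY1 cores lay mostly inside the transcript, with 7 of 11 matches after the start, against 45.6% of the matches in all promoters. The letters AAGATGGC contain an ATG, and in 5 of the 7 (Mrps10, Mrps18a, Mrps18b, Mrps24 and Mrps27) that ATG is an annotated start codon. A factor's site and the start of the reading frame cannot be told apart from these letters. They are shown in the same way, at chr17:47368894-47368921 for Mrps10, chr17:46111005-46111032 for Mrps18a, chr17:35916349-35916376 for Mrps18b, chr11:5707648-5707675 for Mrps24 and chr13:99344790-99344817 for Mrps27.
Mrps10: tcagggcaccAAGATGGCggcgcgcgca
Mrps18a: ggtgcgttccAAGATGGCggccctcagg
Mrps18b: ggtgtgcgtcAAGATGGCtgcccccttg
Mrps24: gcgccggcccAAGATGGCgtggtccgcg
Mrps27: ggtgcgctccAAGATGGCggctcccatg

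The remaining motifs stood nearer to their share in all promoters. GC boxes (GGGCGG) were found in 37 members (47.4%) against 45.7% of all promoters, but 61.7% of those of marked genes and 79.5% of CpG-rich ones. CCAAT was found in 27 (34.6%), against 38.4, 37.4 and 34.7% in the same order. TATAAA was found in 7 (8.97%), against 12.5, 7.43 and 4.45%, so below all promoters but above the marked and CpG-rich ones. The palindrome of NRF1 (nuclear respiratory factor 1) was in the window of 1 member, Mrpl9 (1.28%), against 1.23% of all promoters, 1.71% of marked and 2.67% of CpG-rich ones. No match says only that these letters are not in the window.

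**Figure D5:**
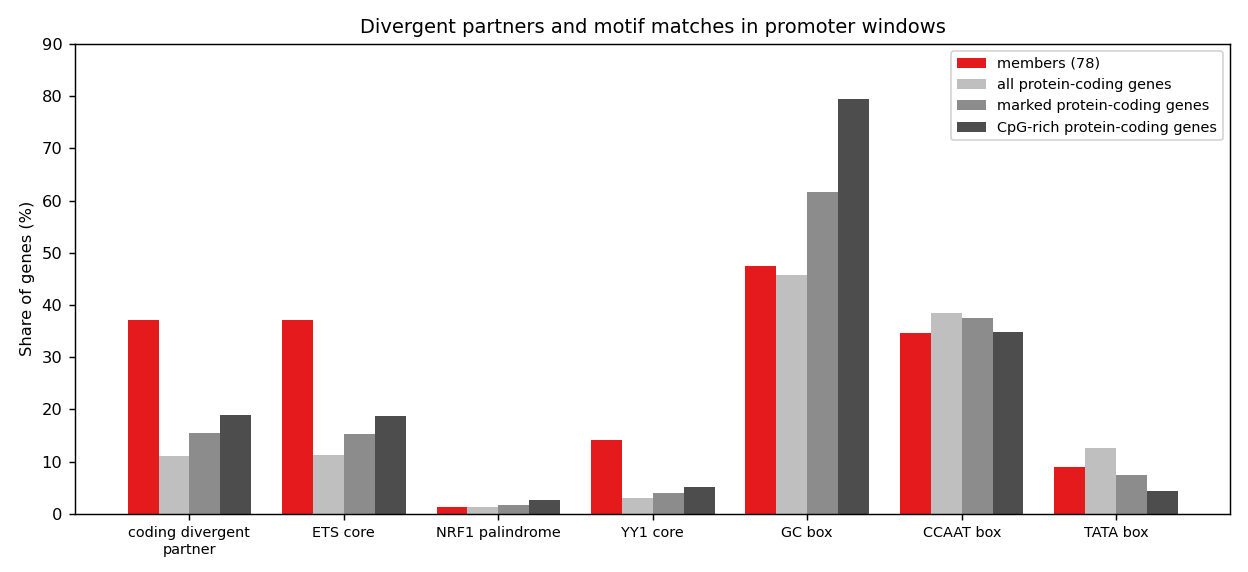
Share of genes (vertical axis, %) with a protein-coding divergent partner and with each of 6 motifs in the promoter window, for the 78 members (red) and for all, marked and CpG-rich protein-coding genes (light to dark grey). Members stand above all 3 backgrounds for partners (37.2%), the ETS core (37.2%) and the YY1 core (14.1%), and below CpG-rich genes for the GC box (47.4% against 79.5%).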

How the data were processed

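H3K4me3 ChIP-seq of 4 libraries in 2 pools was analysed from 4 narrowPeak lists on mm10 (pool E, pool F, pooled and replicated). Per the labels and the narrowPeak format, each deposited peak has a signal value whose reference level no source states, a −log10 q-value that the authors computed, and a summit offset, the authors' own column of another kind. For aligner, peak caller and settings, names are not given in the sources used here. Both technical libraries of a pool went into a single alignment, and the authors called peaks per pool and on the pools combined, per the deposited sample notes. Depth is unknown.

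Genes, TSSs and start codons came from GENCODE M21, and sequence and RefSeq promoter windows from GRCm38.p6. Peaks within 1000 bp of a TSS were assigned with Python 3.11.15, pandas 2.3.3 and numpy 2.4.6, and the assignment was tested on simulated data. Domains joined peaks at most 1000 bp apart. Shares carry 95% Wilson intervals (scipy 1.17.1) that cover counting error only. No test was run. The members, lists and motifs were chosen with earlier results of these data known. Named members were the 10 highest and 10 lowest in signal value, the 6 widest and 6 narrowest, the 6 largest and 6 smallest pool ratios of width, up to 10 members with several peaks, the 15 closest coding partners, and members sharing a promoter with another member. Members outside this rule (Mrps9, Mrps12, the sequences' examples and the partners with mitochondrial roles among them) were chosen after their values were seen. A total of 32 alternatives was planned, and the peak nearest the main start, the omission of 4 members and the RefSeq windows were chosen after seeing the data.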

Additional observations from a re-analysis of the deposited data

How the results depend on the processing

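The count of 78 marked members was the same with TSS windows of 0, 500 and 2500 bp, with TSSs of basic transcripts, in the pooled list, in either pool, and with peaks limited to a q-value of at most 0.05 or 0.01 or a signal value of at least 10. The count was 76 with the 5' end of the gene record alone. The pooled list is not an independent check, since 96.8% of the replicated peaks have the same position and signal value there. The limits on q-value and signal value could not lower the count either. In the replicated list the smallest −log10 q-value of a member's lead peak was 288.4, and the lowest signal value was 27.7. The median width of 2082.5 bp became 2142.5 bp when peaks were joined into domains, a move above the SD of the pool medians (52.3 bp), and lay between 2034 and 2108 bp under the other alternatives. The median signal value lay between 48.3 and 56.8 under all alternatives run. The count of 29 members with a protein-coding partner became 18 with the 5' end of the gene record alone, where 6.84% of all genes had one, and lay between 25 (basic TSSs) and 33 (partner TSS on either side) otherwise. Other settings were chosen after seeing the data: the peak nearest the main start gave 50.1 and 2073 bp, and leaving out the 4 members whose lead peak misses the main start gave 50.8 and 2078 bp. RefSeq windows gave 25 of 69 members with the ETS core and 12 with the YY1 core. No paired analysis was possible because the lists hold no values per library and no result comes from a test. Depth, and so the smallest mark that could be detected, is unknown.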

Other observations

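The annotation also holds 5 processed pseudogenes named after members: Mrpl23-ps1, Mrpl48-ps, Mrps36-ps1, Mrps36-ps2 and Mrps36-ps3. A processed pseudogene is a copy of a spliced transcript inserted elsewhere in the genome, without the promoter of its parent. None of the 5 had a peak within 1000 bp of a TSS in the replicated list (0 of 5), and of all 9849 processed pseudogenes 3.04% did, so the count does not set these 5 apart.

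Among the genes that act with the mitochondrial ribosome, the spread of signal values was like that of the members. The lowest was the elongation factor gene Gfm1, with 28.2 in the replicated list, 43.0 in pool E and 26.8 in pool F. The release factor gene Mtrf1l had 33.0, 34.6 and 25.4. The highest was the rRNA methyltransferase gene Mrm3, with 60.9, 66.7 and 56.5, and the elongation factor gene Tsfm had 60.6, 66.02 and 56.5. Dap3, a GTP-binding protein of the small subunit, had 37.8, 55.8 and 32.0 and a wide peak of 4136 bp, and it too has a protein-coding divergent partner. These genes were named after their values were seen.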
